A study of Mus musculus with 32 samples.

Results

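A list of 10 genes that mark 2 of the rarer endocrine cell types of the mouse islet, the delta cell and the pancreatic polypeptide (PP) cell, were followed through 32 RNA-seq libraries of cultured mouse islets. No cut on a measured value was used to take the genes, but the list was chosen with earlier results of these data known. The genes were taken by symbol: Sst, Hhex, Rbp4, Ghsr, Lepr, Ppy, Pyy, Nrg1, Ffar4 and Sstr3. They are 10 of the genes in a table of 36595 rows. Of the 10, 9 passed a filter on low counts and entered a test over 16428 genes, and Lepr did not.

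The islets were hand-picked after collagenase digestion from mice 10 weeks old, male and female, on a C57BL/6NHsd background. In hIAPP mice the wild-type human gene for islet amyloid polypeptide (IAPP), a hormone that beta cells release with insulin, stood in place of the mouse gene after homologous recombination; mIAPP mice were their wild-type littermates. Both kinds of islet spent a night at 11.1 mM glucose and then 48 h in medium with either 11.1 or 16.7 mM, which gave 4 groups of 8 libraries. Each of 8 experiment sets held 1 library of every group; the labels state neither the number of animals behind a set nor whether 1 preparation was divided between the glucose levels.

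Delta cells release somatostatin, a short peptide that acts on neighbouring alpha and beta cells through G protein-coupled receptors and restrains the release of glucagon and insulin. They respond to glucose, to ghrelin from the stomach and to urocortin 3 from beta cells. PP cells release pancreatic polypeptide, a peptide of the neuropeptide Y (NPY) family that acts on the gut and the exocrine pancreas, and they share peptide YY with other islet cells.

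Promoter sequences were taken for the main hormone genes of the list. The RefSeq sequences on GRCm38.p6 were searched on both strands for TGACGTCA, the palindromic cyclic AMP response element (CRE), and for TATAAA, the core promoter element that often lies just before a start. Capitals mark the motif found, each sequence reads 5′ to 3′ on the minus strand of its gene, and distances count bases before the RefSeq start. The stretch of the Sst promoter from chr16:23890874-23890903 holds the CRE, whose last base lies 41 bases before the start. The GENCODE model of Sst begins 114 bases before the RefSeq start, so this stretch lies inside the gene span given below. The 250 bases before the start of Ppy, from chr11:102101320-102101569, hold TATAAA, 31 bases before the start. The 250 bases before the start of its neighbour Pyy, from chr11:102107833-102108082, hold neither as an exact match. They do hold tataag near the start, which differs from TATAAA in its last letter.
Sst: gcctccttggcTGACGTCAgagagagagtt
Ppy: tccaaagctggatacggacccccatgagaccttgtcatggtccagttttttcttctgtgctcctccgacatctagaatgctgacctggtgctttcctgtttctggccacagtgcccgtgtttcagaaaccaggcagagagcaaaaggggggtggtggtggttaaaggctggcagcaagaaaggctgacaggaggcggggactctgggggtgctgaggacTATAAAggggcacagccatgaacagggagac
Pyy: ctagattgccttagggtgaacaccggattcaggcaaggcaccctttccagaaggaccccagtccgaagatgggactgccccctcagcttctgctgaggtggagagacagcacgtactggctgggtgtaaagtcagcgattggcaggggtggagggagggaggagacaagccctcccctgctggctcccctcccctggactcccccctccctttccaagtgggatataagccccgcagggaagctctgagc
TGACGTCA was found in 1.55% of all 32851 promoters of that table and TATAAA in 12.4%. A match is a description of the letters and not evidence of a bound factor.

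In the GENCODE annotation on GRCm38, Sst lies on chr16:23889573-23890958, minus strand. Ppy (chr11:102099930-102101319) and Pyy (chr11:102106676-102107832) lie on the same strand with 5356 bases between them. Ffar4 (chr19:38097071-38114263, plus strand) and Rbp4 (chr19:38116629-38125281, minus strand) lie 2365 bases apart, so the 10 genes hold 2 close pairs of neighbours. Hhex (chr19:37434810-37440731) lies on the same chromosome. The remaining genes lie apart: Ghsr on chr3:27371351-27378010, Lepr on chr4:101717404-101815352, Sstr3 on chr15:78537008-78544685, and Nrg1 on chromosome 8.

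The deposited values were estimated counts, and totals ran from 16.1 to 43.7 M per library. Levels are in CPM, counts scaled to a fixed library total, after TMM scaling, which corrects for differences in RNA composition. The share of mitochondrially encoded counts differed with culture: it ran from 2.68 to 6.76% in hIAPP islets at 16.7 mM and from 5.23 to 27.2% at 11.1 mM. The mIAPP shares were 2.84 to 37.0% at 16.7 mM and 3.49 to 34.7% at 11.1 mM. Set 7 supplied the 37.0%, and that library stood apart from its group.

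The hormone genes stood highest by far. Per kilobase of the median protein-coding transcript, and over all 32 libraries, the mean level was 3642 CPM for Ppy, 1919 for Pyy and 1668 for Sst. The secreted vitamin A carrier Rbp4 stood at 95.4 CPM per kilobase and the somatostatin receptor Sstr3 at 69.4. The fatty acid receptor Ffar4 stood at 2.06 and the delta cell transcription factor Hhex at 1.98. The ghrelin receptor Ghsr stood at 0.194, the growth factor Nrg1 at 0.107 and the leptin receptor Lepr at 0.0673. The last 3 had so few reads that counting limits what could be seen: Ghsr had 0 to 86 counts per library, Lepr 0 to 27 and Nrg1 0 to 15. With all merged exons as the length, Lepr and Nrg1 changed places.

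**Figure D1:**
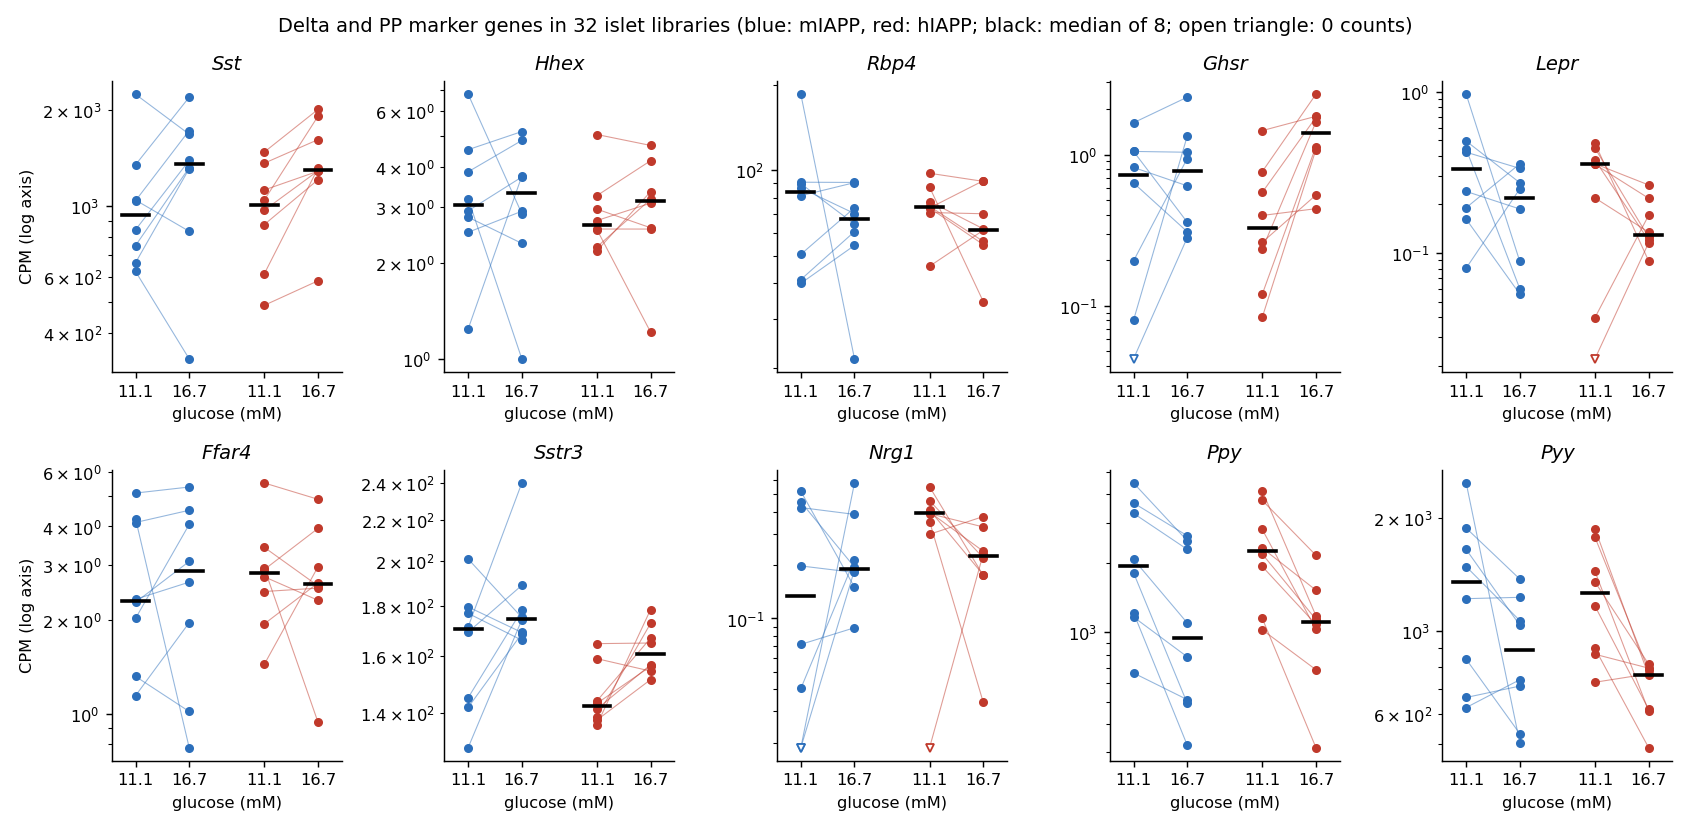
CPM (log axis) of each of the 10 genes in every library, by glucose level, with mIAPP in blue and hIAPP in red; thin lines join libraries of a set, black bars are medians of 8, and open triangles mark 0 counts. Ppy and Pyy sat lower at 16.7 mM in both genotypes, and the groups overlapped for every gene.

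Both PP hormone genes, Ppy and Pyy, were lower at 16.7 than at 11.1 mM glucose in both genotypes. Sst and Ghsr, genes of the delta cell, were higher at 16.7 mM in hIAPP islets. Of the 9 genes tested, 4 changed between 16.7 and 11.1 mM in hIAPP islets (edgeR quasi-likelihood test, Benjamini-Hochberg adjusted p under 0.05), which is 44.4% of them, against 65.5% of all genes. Of these, 2 rose and 2 fell, against 32.2% of all genes higher and 33.3% lower. In mIAPP islets 2 of 9 changed, both lower (22.2%), against 47.5% of all genes, 24.9% higher and 22.7% lower. The share called among these 9 genes was below that of all genes in both genotypes, and nothing particular to the list is read from it. The median log2 change of the 9 was -0.04 in hIAPP and -0.01 in mIAPP islets, beside -0.02 and -0.03 over all genes. Without TMM the split of all genes in hIAPP islets moved from 5294 higher and 5474 lower to 6240 and 4178.

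Ppy, the hormone that names the PP cell, fell in both genotypes. In hIAPP islets it ran from 1026 through a median of 2261 to 4135 CPM at 11.1 mM and from 315 through 1112 to 2167 CPM at 16.7 mM. The mIAPP libraries ran from 666 through 1951 to 4475 CPM at 11.1 mM and from 323 through 942 to 2638 CPM at 16.7 mM. The groups overlapped, but the 16.7 mM library was the lower of its set in 8 of 8 sets in each genotype. Within a set, the log2 difference ran from -1.87 (set 5) to -0.58 (set 4) in hIAPP and from -1.91 (set 5) to -0.38 (set 6) in mIAPP islets. The fitted log2 change was -1.09 ± 0.31 (SE; adjusted p = 0.00363, edgeR) in hIAPP islets, a level 0.468 times that at 11.1 mM. For mIAPP islets it was -0.93 ± 0.31 (adjusted p = 0.0168, edgeR), or 0.525 times. The difference between these changes was -0.17 ± 0.43 (adjusted p = 0.875, edgeR).

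In bulk islets, fewer cells of a type and less RNA per cell cannot be told apart. In mIAPP islets the call for Ppy was lost without set 5 (-0.78, adjusted p = 0.0658 in edgeR) or set 8 (-0.84, adjusted p = 0.0534). Genotype within set as the replicate block, chosen after seeing the data, kept it at -0.93 ± 0.19 (adjusted p = 0.000599, edgeR). In hIAPP islets that block gave -1.11 ± 0.19 (adjusted p = 5.39e-05, edgeR). With the share of mitochondrial counts as a covariate Ppy stood at -1.41 in hIAPP islets (adjusted p = 0.0772, edgeR), and among libraries under 10% mitochondrial counts at -0.76 (adjusted p = 0.0683). That setting kept 8 hIAPP and 5 mIAPP libraries at 16.7 mM but 2 and 3 at 11.1 mM, with 7 residual degrees of freedom.

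Pyy, the gene of peptide YY and of the same peptide family, was lower as well. In hIAPP islets it ran from 729.8 through 1260.4 to 1877 CPM at 11.1 mM and from 488 through 765 to 816 CPM at 16.7 mM. The mIAPP libraries ran from 625 through 1354 to 2488 CPM at 11.1 mM and from 503 through 889 to 1377 CPM at 16.7 mM. Groups overlapped in both genotypes. The hIAPP libraries at 16.7 mM spanned the narrowest range of the 4 groups, and 7 of 8 were lower than their set's 11.1 mM library, with set 4 the exception. The log2 change was -0.78 ± 0.21 in hIAPP islets (adjusted p = 0.00223, edgeR) and -0.53 ± 0.21 in mIAPP islets (adjusted p = 0.0402). Of the mIAPP pairs, 5 of 8 were lower, and set 8 had the largest difference, -2.31. Without set 8 the mIAPP value was -0.33 (adjusted p = 0.164, edgeR), and adjusted p was 0.0739, 0.0665 and 0.0918 without sets 2, 3 and 5. With genotype within set as the replicate block it was -0.51 (adjusted p = 0.0605), which ended the call. In hIAPP islets, Pyy stood at -0.58 with the mitochondrial covariate (adjusted p = 0.275) and at -0.17 among libraries under 10% mitochondrial counts (adjusted p = 0.671).

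The ratio of Ppy to Pyy CPM had a median of 1.61 at 16.7 mM and 1.69 at 11.1 mM in hIAPP islets, and of 1.04 and 1.60 in mIAPP islets. The ranges of the 4 groups overlapped, from 0.608 to 3.00 over the mIAPP libraries and from 0.645 to 2.86 over the hIAPP libraries. The ratio was not tested.

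In hIAPP islets Npy and Npy1r fell with glucose beside Ppy and Pyy, and in mIAPP islets Npy did. Of 8 genes of the family, 4 were tested, and in hIAPP islets 4 fell and 0 rose (33.3% of all genes fell): Ppy, Pyy, Npy and Npy1r. Npy, the neuropeptide Y gene, fell by 1.23 ± 0.27 on the log2 scale (adjusted p = 0.000283, edgeR), from 10.7 to 4.54 CPM. Its receptor gene Npy1r fell by 1.27 ± 0.48 (adjusted p = 0.0236), and its sign turned, to 0.90 (adjusted p = 0.344), with the mitochondrial covariate. In mIAPP islets 3 of 4 fell and 0 rose (22.7% of all genes fell), with Npy at -0.70 ± 0.27 (adjusted p = 0.0377). Npy1r, at -0.20 ± 0.45, did not pass there (adjusted p = 0.736, edgeR). The Npy call was made in 19 of 20 other settings in hIAPP islets, all but the mitochondrial covariate (adjusted p = 0.198, edgeR). For mIAPP islets it was made in 11 of 20. Between genotypes 0 of the 4 passed at either glucose level (edgeR), against 20.5% of all genes at 16.7 mM and 0.128% at 11.1 mM.

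Sst, the somatostatin gene, rose with glucose in hIAPP islets. It ran from 488 through 1007 to 1476 CPM at 11.1 mM and from 583 through 1300.4 to 2007 CPM at 16.7 mM in those islets. The mIAPP libraries ran from 624 through 940.4 to 2240.4 CPM at 11.1 mM and from 332 through 1354 to 2193 CPM at 16.7 mM. Groups overlapped, yet in hIAPP islets the 16.7 mM library was the higher of its set in 8 of 8 sets, by 0.19 (set 2) to 1.10 (set 5) on the log2 scale. The fitted change was 0.48 ± 0.17 (adjusted p = 0.016, edgeR), or 1.40-fold. In mIAPP islets 5 of 8 sets were higher, the spread ran from -0.91 (set 8) to 0.98 (set 1), and the change, 0.30 ± 0.17, did not pass (adjusted p = 0.157). Without set 8 the mIAPP change was 0.43 and passed (adjusted p = 0.041, edgeR). The difference between genotypes, 0.18 ± 0.24, did not pass either (adjusted p = 0.730), so the change was not shown to be particular to hIAPP islets.

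Some settings ended the Sst call, as did leaving out the replicate block (0.50, adjusted p = 0.148, edgeR). With the mitochondrial covariate the estimate was -0.056 (adjusted p = 0.909, edgeR), and without set 5 it was 0.40 (adjusted p = 0.0569). Among libraries under 10% mitochondrial counts it was 0.68 (adjusted p = 0.0559).

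Ghsr, whose product lets ghrelin act on delta cells, rose in hIAPP islets too. It ran from 0.0839 through 0.329 to 1.44 CPM at 11.1 mM and from 0.438 through 1.38 to 2.50 CPM at 16.7 mM, where mIAPP islets ran from 0 through 0.735 to 1.62 and from 0.281 through 0.780 to 2.39. In hIAPP islets the 16.7 mM library was higher in 8 of 8 sets, and in mIAPP islets in 4 of 8. The log2 change was 1.59 ± 0.47 (adjusted p = 0.00489, edgeR), or 3.02-fold, in hIAPP islets and 0.50 ± 0.47 (adjusted p = 0.394) in mIAPP islets. The difference, 1.09 ± 0.67, did not pass (adjusted p = 0.394). With the mitochondrial covariate the hIAPP value was 0.46 (adjusted p = 0.698), and among libraries under 10% mitochondrial counts 1.21 (adjusted p = 0.207). Groups overlapped, and the counts behind these levels are few. Ghrl, the gene of ghrelin and the marker of epsilon cells, was not called in hIAPP islets (-0.09 ± 0.30).

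**Figure D2:**
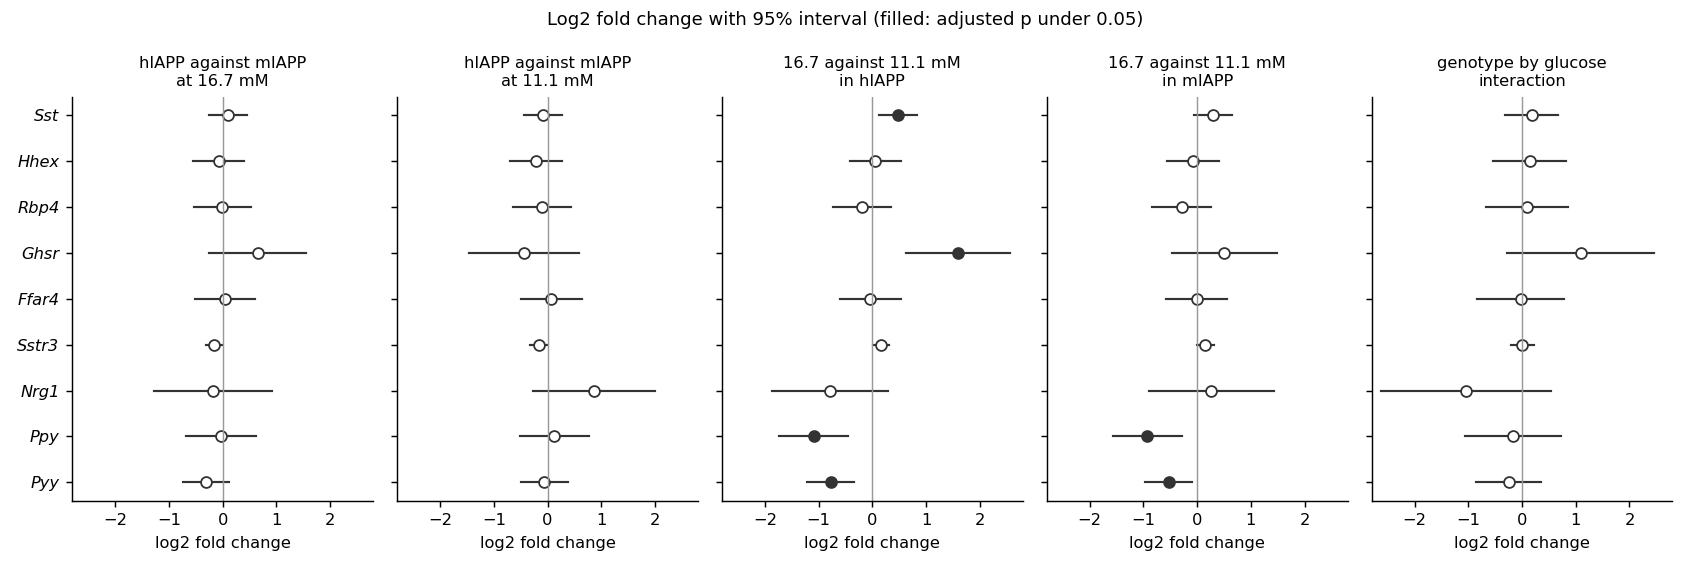
Log2 fold change with its 95% interval for the 9 tested genes in 5 comparisons; filled points have an adjusted p under 0.05 in edgeR. In the glucose comparisons filled points lie above 0 for Sst and Ghsr (hIAPP islets) and below 0 for Ppy and Pyy (both genotypes), and none appears in the genotype comparisons or the interaction.

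The low-level receptor gene Sstr1 rose with glucose in both genotypes. Of 7 genes of that system 4 were tested, and 2 rose in hIAPP islets with glucose (Sst and Sstr1; 32.2% of all genes rose) and 1 in mIAPP islets (Sstr1; 24.9% of all genes rose), with 0 falling. Sstr1, which encodes another somatostatin receptor, rose from 0.0999 to 0.552 CPM in hIAPP islets (log2 2.75 ± 0.56, adjusted p = 0.000135, edgeR) and from 0.0474 to 0.260 CPM in mIAPP islets (2.25 ± 0.64, adjusted p = 0.00539). Between genotypes at 16.7 mM it was higher in hIAPP islets (1.44 ± 0.48, adjusted p = 0.0354), a call made in 7 of 18 other settings. With glucose, the hIAPP call for Sstr1 was made in 17 of 19 other settings. It was lost with the mitochondrial covariate and among libraries under 10% mitochondrial counts. The mIAPP glucose call was made in 18 of 19 and lost among those libraries (adjusted p = 0.118, edgeR). Sstr5 and Cort had too few counts to be tested, and Sstr4 had 0 counts in all 32 libraries.

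Sstr3, a somatostatin receptor of islet cells, had the narrowest spread between sets. It ran from 136 through 142 to 165 CPM in hIAPP and from 129 through 170.3 to 201 CPM in mIAPP islets at 11.1 mM. At 16.7 mM it ran from 151 through 161 to 178 CPM in hIAPP and from 166 through 175 to 240.1 CPM in mIAPP islets. It was lower in hIAPP islets in 7 of 8 sets at each glucose level, with log2 values of -0.16 ± 0.07 at 16.7 mM (adjusted p = 0.116, edgeR) and -0.17 ± 0.07 at 11.1 mM (adjusted p = 0.722). The groups overlapped, and the value at 16.7 mM turned to 0.03 without TMM. Its glucose changes, 0.16 ± 0.07 (adjusted p = 0.0559) in hIAPP and 0.15 ± 0.07 (adjusted p = 0.0864) in mIAPP islets, did not pass. They passed without TMM (0.33, adjusted p = 0.000724, and 0.21, adjusted p = 0.0336, edgeR). The hIAPP change also passed with no filter, without set 7 and without the set 7 mIAPP library at 16.7 mM (adjusted p = 0.0496, 0.0491 and 0.0417), and the mIAPP change without set 5 (0.0281).

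No change passed for the other delta cell genes, whose intervals were wide. Hhex, the transcription factor that keeps delta cell identity, had group medians of 2.64 to 3.32 CPM and glucose changes of 0.06 ± 0.23 (hIAPP) and -0.08 ± 0.24 (mIAPP). Ffar4 had medians of 2.31 to 2.87 CPM and changes of -0.04 ± 0.28 and -0.01 ± 0.28. Rbp4 had medians of 61.8 to 84.0 CPM and changes of -0.19 ± 0.26 and -0.29 ± 0.27. The lowest adjusted p of these 6 values was 0.388 (edgeR). The 95% intervals in hIAPP islets ran from -0.43 to 0.54 for Hhex, from -0.60 to 0.53 for Ffar4 and from -0.73 to 0.34 for Rbp4, so changes within those bounds could not be told from 0. Nrg1, a growth factor that signals through ERBB receptors, had few reads and wide errors, with glucose changes of -0.78 ± 0.53 and 0.27 ± 0.56 in hIAPP and mIAPP islets (adjusted p = 0.193 and 0.719). Lepr, untested, had group medians of 0.130 to 0.356 CPM.

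Between genotypes none of the 9 tested genes passed, Sst, Ppy, Pyy and Ghsr included. At 16.7 mM 0 of 9 were called, against 20.5% of all genes, with 1 at an unadjusted p under 0.05 (Sstr3) and 0 by DESeq2 and limma voom. At 11.1 mM 0 of 9 were called, against 0.128%, again with Sstr3 at an unadjusted p under 0.05 and 0 by the other tools. The interaction gave 0 of 9, against 3.12%, with 0 at an unadjusted p under 0.05 and 0 by DESeq2 and voom. The medians of the 9 log2 values were -0.04 and -0.08, beside -0.01 and 0.00 over all genes tested. At 16.7 mM the estimates were 0.10 ± 0.17 for Sst, -0.04 ± 0.32 for Ppy, -0.30 ± 0.21 for Pyy and 0.65 ± 0.44 for Ghsr, which was higher in 7 of 8 sets. Their 95% intervals ran from -0.25 to 0.45, from -0.69 to 0.61, from -0.73 to 0.12 and from -0.25 to 1.55, in that order. These comparisons share libraries with the glucose ones, so their values are not independent of them.

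Experiment sets took a larger share of the spread than groups for 7 of the 9 tested genes, all but Pyy and Sstr3. Sets outnumber groups, so sets would tend to take the larger share even without any effect. The count of 7 is therefore not read as a set effect. Among these 7, the set shares of Rbp4 and Nrg1 lay below the median over all genes. Of the sum of squares of log2(CPM + 0.5), sets took 68.4% for Sst, 57.1% for Ffar4, 51.9% for Hhex, 46.3% for Ghsr, 45.2% for Ppy, 26.4% for Rbp4 and 23.3% for Nrg1, against a median of 30.1% over all genes. For Sst that is the 99.5th percentile of all genes. Groups took 5.42% for Rbp4, 11.7% for Nrg1, 10.1% for Sst, 25.7% for Ppy, 31.9% for Pyy and 38.7% for Sstr3, against a median of 31.9% over all genes.

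**Figure D3:**
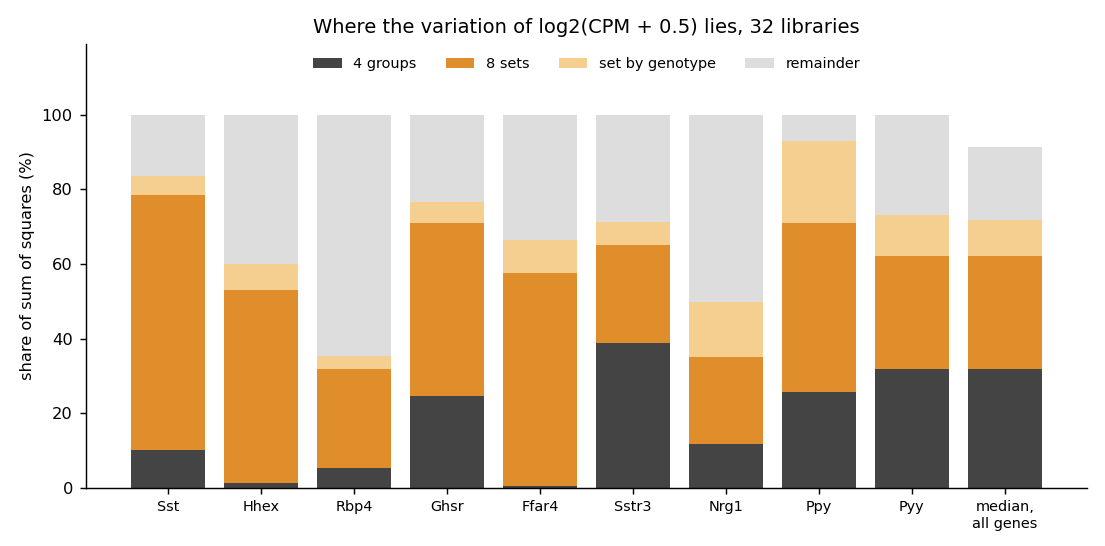
Share of the sum of squares (percent) of each gene taken by group, set, set by genotype and the rest; the last bar gives medians over all genes, which need not sum to 100. The set share is largest for Sst, at 68.4%.

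Sst was lowest in set 8 in 4 of 4 groups and highest in set 3 in 3 of 4. Its set means ran from 493 CPM (set 8) to 1827 CPM (set 3), a ratio of 3.71. Ppy set means ran from 615 (set 5) to 2514 CPM (set 3), a ratio of 4.09, and Pyy from 666 (set 5) to 1388 CPM (set 7). Ghsr varied most, 6.62-fold, and Sstr3 least, 1.22-fold.

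**Figure D4:**
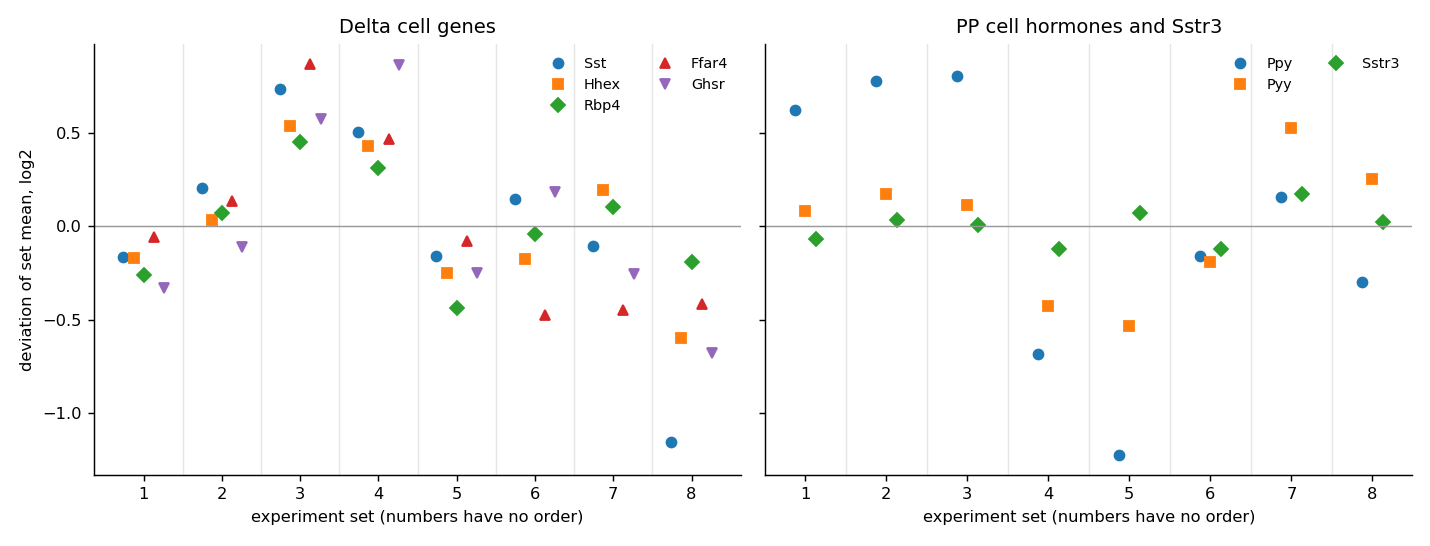
Deviation of each set's mean log2(CPM + 0.5) from the mean of all sets, as points by set, for Sst, Hhex, Rbp4, Ffar4 and Ghsr (left) and Ppy, Pyy and Sstr3 (right). Sst was low in set 8 and Ppy in set 5.

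Sets also differed in how genotypes compared. In set 6 Ppy stood at 4.25 times the mIAPP level in hIAPP islets at 16.7 mM and at 5.65 times at 11.1 mM. In set 1 it was the mIAPP library that was higher, 2.31 and 1.67 times. The hIAPP library was on the same side of the mIAPP library at both glucose levels in 6 of 8 sets for Ppy and Pyy and in 3 of 8 for Sst, and set by genotype took 22.2% of the spread of Ppy.

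After group means were removed, several delta cell genes varied together over the 32 libraries, in which the 4 libraries of a set are not independent. Pearson's r was 0.745 for Hhex and Rbp4, 0.736 for Hhex and Ghsr, 0.729 for Sst and Hhex and 0.675 for Sst and Ffar4. Other pairs did not: r was 0.326 for Rbp4 and Ghsr, 0.0518 for Sst and Nrg1 and -0.120 for Sst and Lepr. With Sstr3 it was -0.0399 for Sst and -0.401 for Ghsr. It was 0.690 for Ppy and Pyy, 0.321 for Sst and Ppy and 0.0639 for Sst and Pyy. Pyy had an r of 0.516 with Rbp4 and of 0.548 with Sstr3, and the median over 45 pairs was 0.118. Among 13007 genes, those most like Sst included Fbp1 (0.873), Cacna2d2 (0.872), Sorcs2 (0.869) and Peg10 (0.852), and those most like Ppy were Speg (0.777), Cela1 (0.717), Kcnj10 (0.701), Prph (0.694) and Pyy (0.690). Sst had an r of -0.638 with the mitochondrial share and Ghsr one of -0.649, Ffar4 one of -0.656, Pyy one of 0.445 and Ppy one of 0.0265. All of these are descriptions of the 32 libraries.

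Ucn3, the beta cell peptide that drives somatostatin release, was at 16.7 mM lower in hIAPP islets, and it fell with glucose in both genotypes. At 11.1 mM its genotype difference was -0.10 ± 0.12 (adjusted p = 0.861, edgeR), and the interaction, -0.57 ± 0.16, did not pass (adjusted p = 0.0536). Of 15 partner genes 11 were tested, and at 16.7 mM 1 rose and 3 fell in hIAPP against mIAPP islets, where 20.5% of all genes were called. Ucn3 fell by 0.67 ± 0.12 (adjusted p = 0.00023, edgeR), Crhr1, a receptor of the same peptide family, by 1.12 ± 0.22 (adjusted p = 0.00101), and Crhr2, the receptor of urocortin 3, by 0.81 ± 0.29 (adjusted p = 0.0438; 7 of 18 other settings). Socs3, which restrains leptin and cytokine signalling, rose by 0.64 ± 0.10 (adjusted p = 7.14e-05). Glucose in hIAPP islets raised 3 and lowered 6 of the 11 (65.5% of all genes were called), among them Socs3 (1.04 ± 0.10), Ucn3 (-0.99 ± 0.12) and Ttr (1.35 ± 0.17). In mIAPP islets it raised 2 and lowered 4 (47.5% of all genes were called), with Ttr at 1.40 ± 0.17 and Ucn3 at -0.42 ± 0.12. The interaction passed for Socs3 alone of the 11 (0.83 ± 0.14, adjusted p = 0.00106), against 3.12% of all genes.

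Of 5 genes listed as other delta cell genes 4 were tested, and Crhr2, Cckbr and Casr are also among the partner genes above. With glucose in hIAPP islets Casr rose and Crhr2 fell (65.5% of all genes were called), and in mIAPP islets Casr rose (47.5%). Crhr2 fell between genotypes at 16.7 mM (20.5%). These are the same calls as those counted among the partners. Ptprz1 and Spock3, in this list alone, did not pass with glucose in hIAPP islets (adjusted p = 0.0538 and 0.365, edgeR). Casr, the calcium-sensing receptor, rose with glucose in hIAPP (1.40 ± 0.39, adjusted p = 0.00349, edgeR) and mIAPP islets (1.24 ± 0.39, adjusted p = 0.0116), and with the mitochondrial covariate the hIAPP value turned to -0.49. Among 11 endocrine transcription factors, 10 tested, glucose in hIAPP islets raised Insm1 (1.07 ± 0.20) and lowered 5, with Isl1 at -0.45, Nkx2-2 at -0.28 and Pdx1 at -0.34. Of all genes 32.2% rose and 33.3% fell in that comparison. Another of the 5, Neurod1, turned to 0.025 with the mitochondrial covariate. In mIAPP islets 1 rose and 1 fell (47.5% of all genes were called), and the 1 that rose was again Insm1 (0.68). At 16.7 mM, with 20.5% of all genes called, 1 rose and 3 fell between genotypes: Insm1 (0.54 ± 0.19), Pdx1 (-0.32), Isl1 (-0.27) and Nkx2-2 (-0.25). These calls were made in 10, 18, 8 and 15 of 19 other settings, in that order.

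Markers of other cells moved with glucose beside these genes, in a comparison in which 65.5% of all genes were called in hIAPP and 47.5% in mIAPP islets. In hIAPP islets 8 of 9 beta cell markers tested fell and 1 rose; all 6 endothelial markers, 5 of 6 stellate and fibroblast markers, 5 of 6 macrophage markers and 2 of 3 glial markers fell. Of 7 alpha cell markers 2 rose and 0 fell; of 7 acinar markers tested 1 rose, of 5 ductal markers 2 rose and 1 fell, and the epsilon marker Ghrl did not pass. Their summed CPM ran from 11.4 to 39.0 at 16.7 mM and from 33.8 to 96.4 at 11.1 mM for endothelial markers, from 80.2 to 159 and from 211 to 365 for macrophage markers, and from 2060 to 15717 and from 2204 to 9709 for alpha cell markers. In mIAPP islets 5 beta, 3 endothelial, 3 stellate and fibroblast, 6 macrophage and 2 glial markers fell. There, 1 beta and 1 ductal marker rose, 2 alpha cell markers rose and 1 fell, and 0 acinar markers passed. Between genotypes at 16.7 mM 20.5% of all genes were called. In that comparison 6 beta, 3 endothelial and 1 stellate and fibroblast markers fell. In it 1 macrophage and 1 ductal marker rose, and no alpha, acinar or glial marker passed. No marker of these lists was at 0 in all libraries of a group. Their part in the changes of Ppy, Pyy, Sst and Ghsr was not tested.

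**Figure D5:**
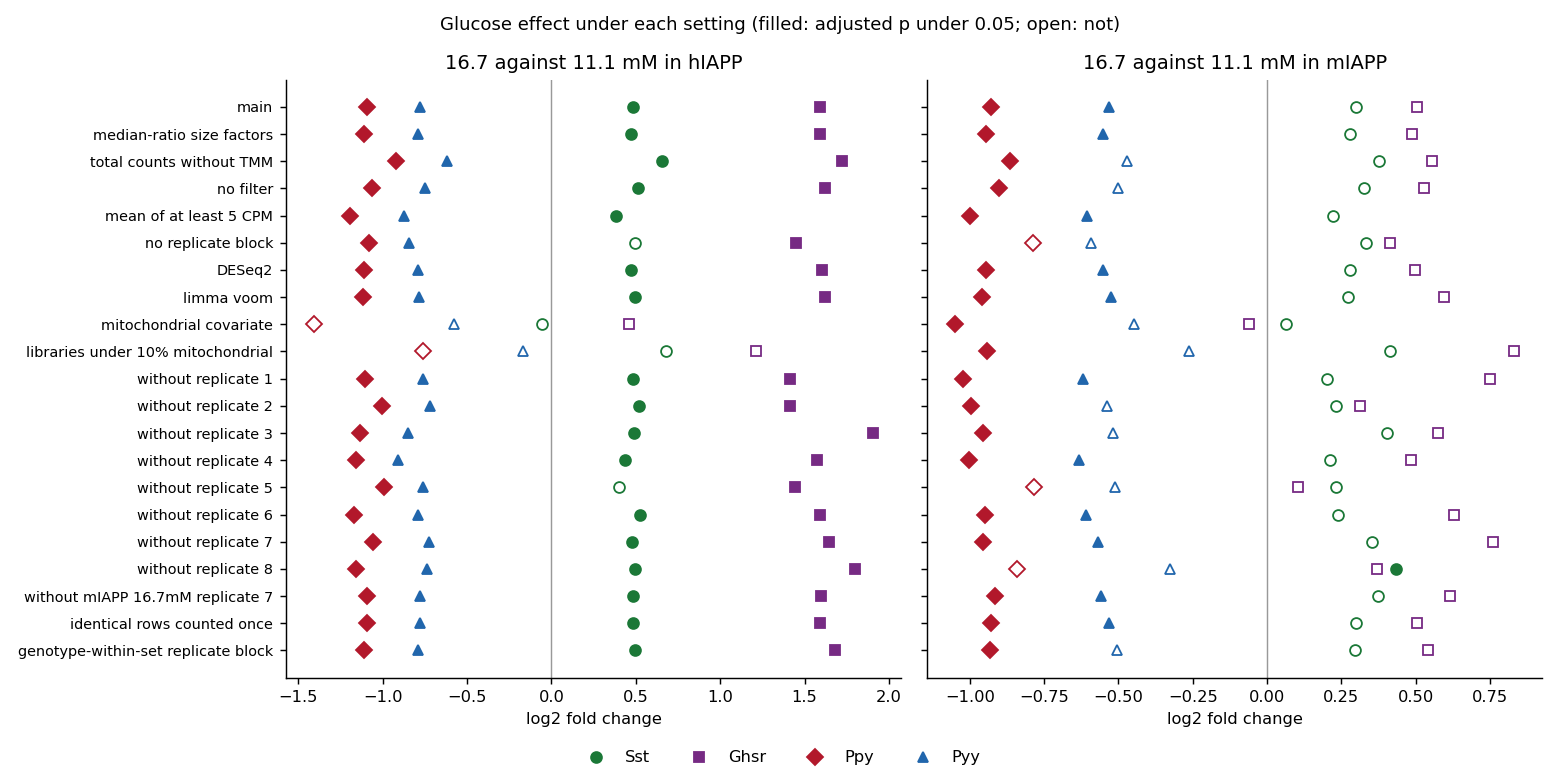
Log2 change with glucose of Sst, Ghsr, Ppy and Pyy under each processing setting, in both genotypes; filled points have an adjusted p under 0.05. The mitochondrial covariate brings the hIAPP value of Sst to -0.056, and Ppy stays below 0 in each setting shown.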

How the data were processed

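Poly(A)-selected RNA of 32 islet libraries was sequenced. Per the submitters' processing notes, bcl2fastq 1.8.4, kallisto 0.45.0 and GRCm38 were used. The authors deposited estimated counts (expected counts) as whole numbers per Ensembl gene; the step from transcripts to genes is not given in the sources used here. Hhex stood under 2 identifiers with identical counts and was used once.

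Counts were scaled by TMM and filtered with filterByExpr in edgeR 4.0.16 under R 4.3.3. A single quasi-likelihood fit over all 32 libraries modelled the 4 groups with set as the block, and Benjamini-Hochberg adjustment ran over 16428 genes at 0.05. SE is the log2 change divided by the root of F. DESeq2 1.42.0 and limma 3.58.1 were alternatives. Depth sets the precision of genes with few counts. Differences between sets are taken out by the block, so p-values and intervals rest on the spread that remains among the libraries within sets.

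The labels describe 8 sets of experiments, each with all 4 groups. The 4 libraries of a replicate number share a bracketed tag in their titles, whose meaning is not given. Taking that number as the set is a reading of the labels. After group means were removed, same-set profiles of 2 groups correlated with a mean r of 0.168 to 0.362 and a lowest r of -0.23. Per pair of groups, 4 to 6 of 8 libraries correlated best with their own number.

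The named genes were all 10 markers in every comparison, up to 4 with the smallest p of each other list, and the 5 genes most like Sst and Ppy; some of these are not reported here. Other lists covered somatostatin and NPY family genes, partners of delta cell receptors, other delta cell genes, transcription factors, and markers of beta, alpha, epsilon, acinar, ductal, endothelial, stellate, macrophage and glial cells. The members and lists were chosen with earlier results of these data known. A test on simulated data (16301 genes, the genotype comparison at 16.7 mM) recovered 76% of changes of 1 and 98% of changes of 2 on the log2 scale, with 4.40% false calls.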

Additional observations from a re-analysis of the deposited data

Results flagged for a closer look

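Of 40 combinations of gene and group, 6 held a library far from the other 7; chance gives about 1 in 20. Sst stood at 2240.4 CPM in set 3 of the mIAPP group at 11.1 mM, and the next was 1346. Hhex stood at 5.07 CPM in set 3 of the hIAPP group at 11.1 mM, and the next was 3.26. Rbp4 stood at 185.6 CPM in set 8 of the mIAPP group at 11.1 mM, and the next was 90.8. Lepr stood at 0.965 CPM, from 27 counts, in set 6 of the same group, and the next was 0.495. Nrg1 stood at 0 in set 7 of the hIAPP group at 11.1 mM, and the next was 0.298. Sstr3 stood at 240.1 CPM in set 7 of the mIAPP group at 16.7 mM, the library with 37.0% mitochondrial counts, and the next was 188.9.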

How the results depend on the processing

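Over 20 settings, 0 of the 9 genes were called between genotypes or for the interaction. In hIAPP islets 4 genes were called with glucose; 0 were called with the mitochondrial share as a covariate and 1 among libraries under 10% mitochondrial counts (Lepr, at -2.28, adjusted p = 0.0425 in edgeR; with no filter it was at -0.87, adjusted p = 0.227, and it was tested in no other setting). In mIAPP islets 2 were called; 1, Ppy, was called with no filter, with the mitochondrial covariate, among libraries under 10% and with genotype within set as the replicate block, which was chosen after seeing the data. Without the replicate block 0 were called in mIAPP islets, where Ppy was at -0.79 and Pyy at -0.59, and in hIAPP islets Sst was at 0.50 (adjusted p = 0.148, edgeR). Leaving out 1 set gave 1 to 2 in mIAPP islets: Ppy alone without set 2 or 3, Sstr3 alone without set 5, Sst alone without set 8, and Ppy and Pyy otherwise. Signs turned with the mitochondrial covariate for Sst (-0.056), Npy1r (0.90), Casr (-0.49) and Neurod1 (0.025) with glucose in hIAPP islets and for Insm1 (-0.0052) between genotypes at 16.7 mM; the cause was not tested.

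Among all genes, 3371 were called between genotypes at 16.7 mM, and 1301 without the block, 752 with the covariate, 1133 under 10%, 1623 without set 1, 1852 without set 6, 1943 without set 7, 2215 without set 2 and 2108 without the set 7 mIAPP library at that glucose level. At 11.1 mM 21 were called, 35 by DESeq2, 12 above 5 CPM and 10 under 10%. With glucose in hIAPP islets 10768 were called, 3181 with the covariate and 3881 under 10%; in mIAPP islets 7805 and 5181. The interaction gave 513, 196 without the block, 959 by DESeq2, 946 by voom, 260 with the covariate, 7 under 10%, and 239, 310, 280 and 337 without sets 1, 2, 6 and 8. The remaining counts moved by less than 1.5 times without the replicate block. Without TMM the median log2 value of all genes moved to 0.18 between genotypes at 16.7 mM, where the split moved from 1523 higher and 1848 lower to 2421 and 730, and to 0.15 with glucose in hIAPP islets. The split of the interaction moved from 357 and 156 to 346 and 68. Counts limit Ghsr, Lepr and Nrg1.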
